A study of Mus musculus with 4 samples.

Results

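The genes described here are the 38 members of the unfolded protein response and the integrated stress response that were measured in mouse kidney cells, out of 27998 genes in each count table. They were chosen by name and fall into a chaperone arm of 21 genes, which act in or around protein folding in the endoplasmic reticulum, and an ATF4 arm of 17 genes, which centres on the transcription factor ATF4 and genes it is known to act on. Kidneys came from male C57BL/6 mice aged 6 to 8 weeks given glyoxylate into the peritoneum on 0, 1, 4 or 7 days in succession (D0, D1, D4 and D7). Glyoxylate is turned into oxalate in the body, and the model is used for calcium oxalate crystals in the kidney. Every kidney, D0 included, was minced and digested with trypsin and DNase at 37 °C before droplet sequencing, and there was 1 library per day. The labels do not say how many animals went into a library. With 1 library per day nothing could be tested between animals, so every interval below is a 95% interval that covers counting error alone, and no p-value is given.

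When unfolded proteins gather in the endoplasmic reticulum, the sensors IRE1, PERK and ATF6 signal to the nucleus, and XBP1 and ATF6 switch on chaperones, oxidoreductases and degradation factors. PERK, together with other kinases that sense amino acid shortage, viral RNA or lack of haem, phosphorylates the initiation factor eIF2. This slows translation in general and favours translation of ATF4, which acts on genes for amino acid supply, tRNA charging and cell death. The chaperone arm therefore reads mainly the endoplasmic reticulum and the ATF4 arm any of the kinases. In the kidney, proximal tubule cells reabsorb most of the filtered solutes and make Havcr1 (Kim-1, a surface receptor) when injured.

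The arms also differ in their promoters, and the sequences below show the letters by which they differ. In the RefSeq promoters of build GRCm38.p6, from 250 bases before to 50 after each start, 18 of 21 chaperone-arm and 16 of 17 ATF4-arm members were found. Both strands were searched. The 16 ATF4-arm members have 19 promoters, because Atf5, Vldlr and Psat1 have alternative starts. A member was counted once if any of its promoters matched, while the share of all promoters counts each promoter. The endoplasmic reticulum stress element (ERSE: CCAAT, any 9 bases, CCACG) was in promoters of 7 of 18 chaperone-arm members and of 0 of 16 ATF4-arm members. It was in 0.119% of all 32851 promoters in the table. Its matches are written in the direction of the motif, with the fixed letters in capitals:
Hspa5, chr2:34772025-34772043, plus strand, 65 to 47 bases before the start: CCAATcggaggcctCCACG
Hsp90b1, chr10:86705638-86705656, minus strand, 212 to 194 bases before the start: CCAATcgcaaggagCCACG
Hsp90b1, chr10:86705533-86705551, plus strand, 107 to 89 bases before the start: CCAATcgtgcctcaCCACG
Calr, chr8:84847075-84847093, plus strand, 162 to 144 bases before the start: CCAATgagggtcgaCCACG
Canx, chr11:50325800-50325818, minus strand, 145 to 127 bases before the start: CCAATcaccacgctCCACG
Pdia6, chr12:17266491-17266509, plus strand, 98 to 80 bases before the start: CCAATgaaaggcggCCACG
Dnajc3, chr14:118937827-118937845, plus strand, 105 to 87 bases before the start: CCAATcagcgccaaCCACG
Creld2, chr15:88819520-88819538, minus strand, 126 to 108 bases before the start: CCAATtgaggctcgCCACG
The shorter form ERSE-II (ATTGG, any 1 base, CCACG) was in 2 chaperone-arm promoters, in 0 ATF4-arm promoters and in 0.0365% of all promoters:
Dnajb11, chr16:22857852-22857862, plus strand, 7 to 17 bases after the start: ATTGGcCCACG
Herpud1, chr8:94386377-94386387, plus strand, 52 to 42 bases before the start: ATTGGgCCACG
The letters TGATGNAA are a form of the element that ATF4 binds with a C/EBP partner (CARE). They were in promoters of 5 of 16 ATF4-arm members, of 1 of 18 chaperone-arm members and in 3.97% of all promoters:
Herpud1, chr8:94386317-94386324, minus strand, 112 to 105 bases before the start: TGATGcAA
Trib3, chr2:152344039-152344046, plus strand, 14 to 21 bases after the start: TGATGtAA
Chac1, chr2:119351049-119351056, minus strand, 193 to 186 bases before the start: TGATGcAA
Asns, chr6:7693225-7693232, minus strand, 23 to 16 bases before the start: TGATGaAA
Vldlr, chr19:27216820-27216827, minus strand, 200 to 193 bases before the start: TGATGcAA
Aars, chr8:111033730-111033737, minus strand, 112 to 105 bases before the start: TGATGcAA
Aars, chr8:111033851-111033858, minus strand, 9 to 16 bases after the start: TGATGaAA
The XBP1 element TGACGTGG was in 0 promoters of either arm and in 0.676% of all promoters. No matches of different motifs overlapped in these promoters. A match is a run of letters, not a shown binding site, and enhancers or introns were not searched. Starts here are those of RefSeq and can differ from the GENCODE M21 gene spans given further below. The Asns match before its RefSeq start lies inside its GENCODE span.

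The 250 bases before the start are printed for 4 members on which the results turn, with motif letters in capitals. Hspa5 has an ERSE, Herpud1 has both an ERSE-II and, on the other strand, a CARE, and Chac1 and Asns each have a CARE. The coordinates are chr2:34771840-34772089 on the plus strand for Hspa5, chr8:94386179-94386428 on the plus strand for Herpud1, chr2:119350992-119351241 on the plus strand for Chac1 and chr6:7693210-7693459 on the minus strand for Asns.
Hspa5: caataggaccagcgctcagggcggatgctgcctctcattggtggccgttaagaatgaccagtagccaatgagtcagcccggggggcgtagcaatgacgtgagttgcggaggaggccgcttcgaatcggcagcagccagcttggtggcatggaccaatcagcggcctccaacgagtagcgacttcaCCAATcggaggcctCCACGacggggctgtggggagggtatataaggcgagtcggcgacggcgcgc
Herpud1: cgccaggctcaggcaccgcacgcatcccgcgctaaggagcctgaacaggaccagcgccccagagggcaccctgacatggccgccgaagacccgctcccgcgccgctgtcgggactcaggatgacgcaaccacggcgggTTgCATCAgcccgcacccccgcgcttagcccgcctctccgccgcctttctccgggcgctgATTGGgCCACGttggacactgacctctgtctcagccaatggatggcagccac
Chac1: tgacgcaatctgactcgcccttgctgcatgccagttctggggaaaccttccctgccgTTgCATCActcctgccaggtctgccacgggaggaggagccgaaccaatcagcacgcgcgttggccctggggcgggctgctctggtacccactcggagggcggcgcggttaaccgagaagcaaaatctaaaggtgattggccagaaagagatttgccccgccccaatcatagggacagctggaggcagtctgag
Asns: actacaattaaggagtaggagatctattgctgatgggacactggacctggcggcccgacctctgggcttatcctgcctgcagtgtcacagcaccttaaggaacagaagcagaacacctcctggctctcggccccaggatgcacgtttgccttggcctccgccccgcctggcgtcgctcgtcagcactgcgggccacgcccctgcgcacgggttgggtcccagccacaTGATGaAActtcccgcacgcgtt

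The depth of the 4 libraries lay between 85009491 and 99337001 UMIs (unique molecular identifiers, each standing for 1 captured RNA molecule) and 12730 to 16427 cell barcodes. Cells with at most 50% of UMIs from mitochondrial genes were kept. The proximal tubule gate (at least 2 UMIs of Lrp2 and Slc34a1 together, 0 of Ptprc) held 11751, 7635, 15040 and 12625 cells at D0, D1, D4 and D7, with median depths of 5679, 6976, 5014 and 5685 UMIs. Thick limb cells (at least 3 UMIs of Slc12a1) numbered 106, 108, 106 and 173, distal cells (at least 3 of Slc12a3) 353, 264, 208 and 310, and macrophages (at least 5 of the C1q genes) 158, 177, 127 and 194. The lowest barcode depth was 500 UMIs at D0 and D1 but 2919 at D4 and 2773 at D7. The mitochondrial limit removed 11.8, 10.2, 1.97 and 4.19% of barcodes at D0, D1, D4 and D7. A difference of D4 and D7 from D0 and D1 therefore cannot be told apart from this difference between libraries. Any pair of libraries shared 50 to 81 barcodes. UMIs of a gate were summed per library and scaled to a level per 1000000 UMIs of that sum (CPM). A gene was called higher or lower when the ratio of CPM was at least 1.5 or at most 0.667 and its interval excluded 1, among genes with at least 50 UMIs over the 4 libraries of the gate. The 11 proximal tubule markers were all detected in the proximal tubule gate in every library. In summed cells, more cells with a transcript and more transcript per cell cannot be told apart.

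In proximal tubule cells no chaperone-arm member was called on any day, while part of the ATF4 arm was called higher. Ratios above 1 were held by 5, 18 and 18 of 21 chaperones at D1, D4 and D7, so most were slightly higher at D4 and D7. In the ATF4 arm 12, 15 and 14 of 17 had a ratio above 1, and of all genes 64.6, 55.7 and 61.3% did. At D1, 0 of 21 chaperone-arm members and 5 of 17 ATF4-arm members were called higher, and 0 were called lower in either arm, against 5.73% of 13672 genes called higher and 1.77% called lower. The D1 count of 5 was 2 or 3 under 8 of the alternatives, TMM factors and a mitochondrial limit of 25% among them. At D4 the counts were 0 of 21 and 8 of 17 (9.08% of genes higher, 2.94% lower). At D7 they were again 0 of 21 and 8 of 17 (12.5% higher, 3.69% lower). Among the 6671 genes of at least 10 CPM, where all 21 chaperones lie, 4.12% were called higher at D7 and 1.47% lower. The median log2 ratio of the ATF4 arm was 0.20, 0.58 and 0.57 at D1, D4 and D7, that of the chaperone arm -0.12, 0.14 and 0.17, and that of all genes 0.11, 0.03 and 0.07. Among the 15 ATF4-arm members with at least 200 UMIs, which leaves out Trib3 and Chac1, the medians were 0.17, 0.21 and 0.29 and the counts called 3, 6 and 6.

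**Figure D1:**
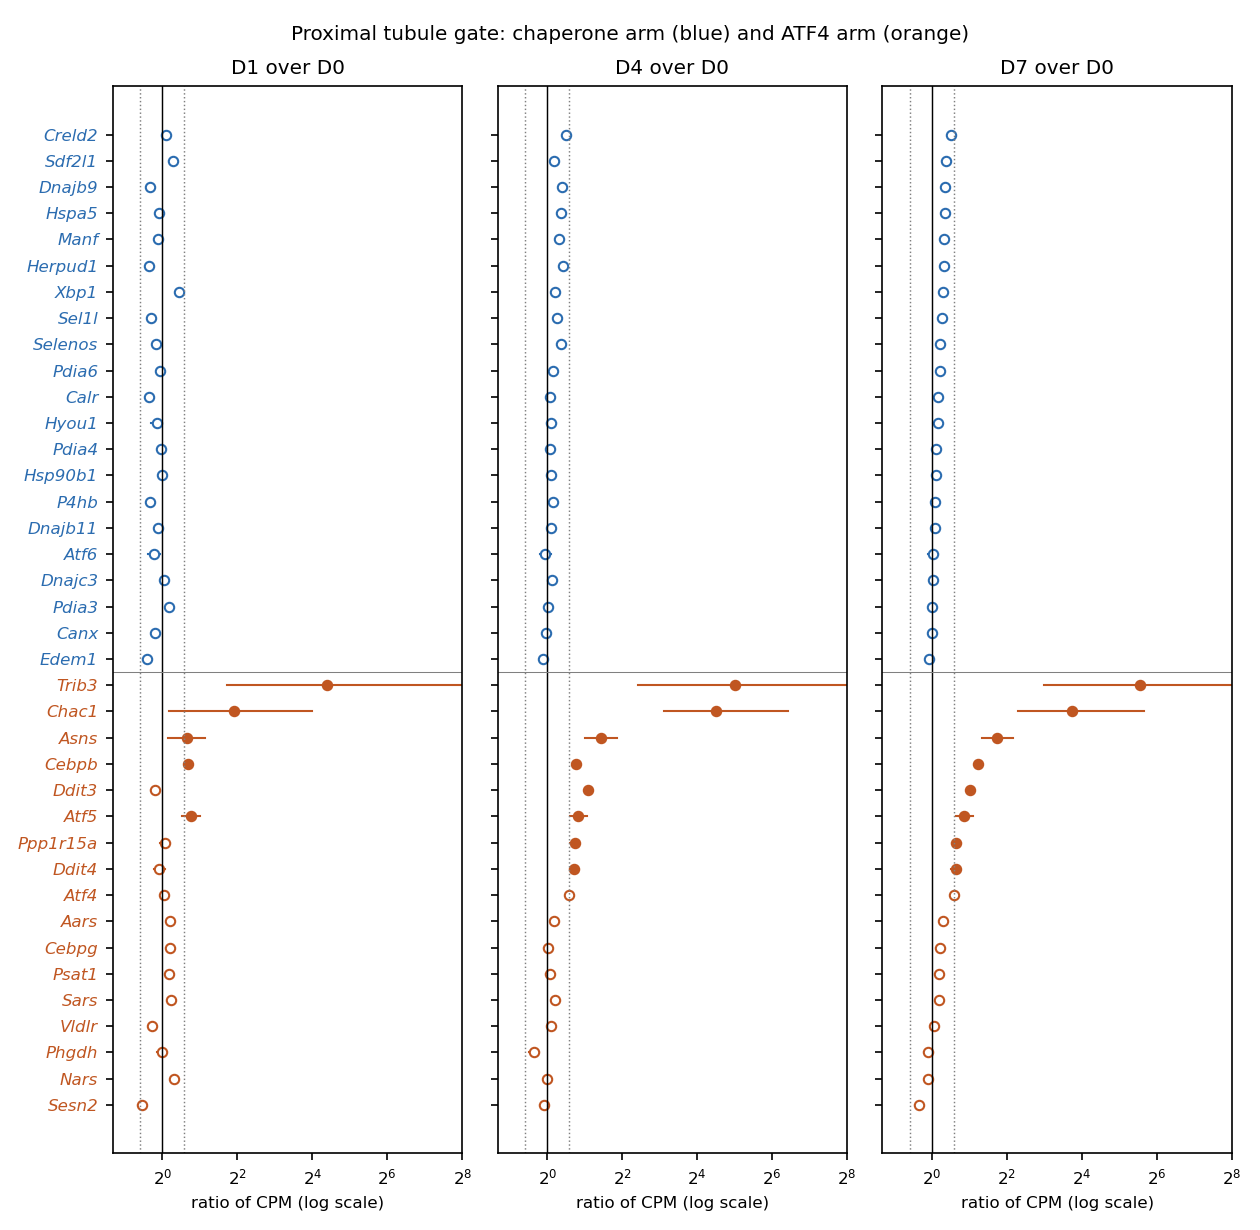
Ratio of CPM at D1, D4 and D7 over D0 in the proximal tubule gate (x axis, log scale) for the 21 chaperone-arm (blue) and 17 ATF4-arm genes (orange). Points are single libraries over a single library, lines are 95% counting intervals ending at the axis limits, filled points are called, dotted lines mark 1.5 and 0.667; no blue point is filled and 8 orange points are filled at D4 and at D7.

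Among the chaperones, Hspa5 (BiP, the main Hsp70 chaperone of the endoplasmic reticulum and the usual readout of the response) stood at 376, 356, 488 and 481 CPM at D0, D1, D4 and D7. Its D7 level was 1.28 times that of D0 (1.26 to 1.30). The later pair of days was thus higher than the first pair by less than the limit of a call. These pairs also differed in lowest barcode depth, which cannot be told apart from day. Hsp90b1 (GRP94, an Hsp90 of the same compartment) stood at 357, 352, 382 and 382 CPM, a D7 ratio of 1.07 (1.05 to 1.09). The calcium-binding lectin chaperones Calr and Canx had D7 ratios of 1.12 and 0.99. The oxidoreductases that form and rearrange disulfide bonds, Pdia3, Pdia4, Pdia6 and P4hb, had D7 ratios between 1.00 and 1.15. Hyou1, a large Hsp70-like chaperone and exchange factor for BiP, had a ratio of 1.11.

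Among the co-chaperones and secreted factors 0 were called. Creld2, a disulfide isomerase-like protein released under stress, had the highest ratio of the arm, with 26.7, 28.5, 38.1 and 38.2 CPM and a D7 ratio of 1.43 (1.35 to 1.51). Sdf2l1, which works with BiP and its DnaJ partners, had a D7 ratio of 1.29. The DnaJ proteins Dnajb9, Dnajb11 and Dnajc3 (an inhibitor of PERK) had 1.28, 1.06 and 1.01. Manf, a secreted protective factor that also binds BiP, had 1.25. The gene of Manf overlaps Rbm15b on the same strand, so its reads could be split between them.

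Of the degradation factors 0 were called either. Herpud1, a membrane protein of the degradation complex, stood at 210, 165, 280 and 260 CPM, with a D7 ratio of 1.24 (1.21 to 1.26). Edem1 (a lectin-like protein that passes misfolded glycoproteins on), Sel1l (the adaptor of the ubiquitin ligase) and Selenos (a selenoprotein of the export channel) had D7 ratios of 0.95, 1.20 and 1.16. The regulators were Atf6, the membrane-bound transcription factor, at 1.02, and Xbp1, the factor whose mRNA IRE1 splices, at 88.8, 122, 103 and 109 CPM. Xbp1 was the member of the arm with the highest ratio at D1, 1.37 (1.33 to 1.42). The 3' counts do not tell spliced from unspliced Xbp1, so they do not read IRE1 activity.

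**Figure D2:**
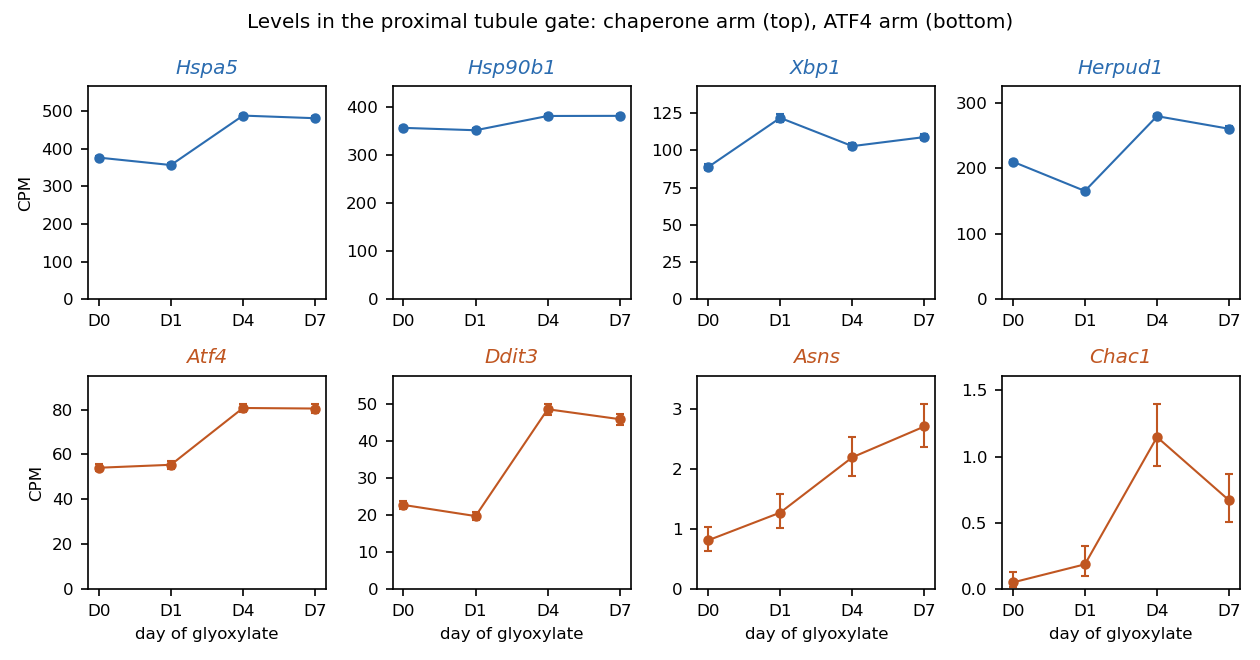
CPM in the proximal tubule gate (y axis, from 0) at D0, D1, D4 and D7 (x axis) for 4 chaperone-arm genes (blue, top) and 4 ATF4-arm genes (orange, bottom), with 95% counting intervals and 1 library per point. Hspa5 and Herpud1 are modestly higher at D4 and D7, while Ddit3 stands at 48.6 and 45.9 CPM there against 22.7 CPM at D0.

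In the ATF4 arm the highest ratios belonged to genes with few UMIs at D0. Trib3, a pseudokinase that restrains ATF4 and AKT signalling, had counts of 1, 17, 34 and 48 from D0 to D7, or 0.0125, 0.265, 0.402 and 0.584 CPM. Its D7 ratio was 46.7, with an interval from 7.98 to 1881. Chac1, which breaks down glutathione, had 4, 12, 97 and 55 UMIs, a ratio of 22.9 (8.66 to 85.7) at D4 and 13.4 (4.93 to 50.8) at D7. Both genes passed the filter of 50 UMIs only through the later libraries, and the 48 Trib3 UMIs at D7 lay in 39 cells. Asns (asparagine synthetase; ENSMUSG00000029752, chromosome 6, 7675169 to 7693254 in mm10) had 65, 82, 186 and 223 UMIs, or 0.814, 1.28, 2.20 and 2.71 CPM, and a D7 ratio of 3.33 (2.52 to 4.47).

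The transcription factors were led by Ddit3 (CHOP, linked to cell death under lasting stress; ENSMUSG00000025408, chromosome 10, 127290774 to 127296288 in mm10), at 22.7, 19.7, 48.6 and 45.9 CPM. The D4 and D7 levels were 2.14 times (2.02 to 2.26) and 2.02 times (1.91 to 2.14) that of D0, while D1 was at 0.868 times. Atf5, whose mRNA is translated under the same control as Atf4, stood at 2.98, 5.08, 5.31 and 5.40 CPM and was called on all 3 days, with ratios of 1.70, 1.78 and 1.81. Cebpb, a partner of ATF4 that also serves inflammatory programmes, stood at 65.7, 105, 112 and 155 CPM, with a D7 ratio of 2.36 (2.28 to 2.44). Cebpg, another dimer partner, had a D7 ratio of 1.15. Atf4 itself stood at 54.1, 55.4, 80.7 and 80.5 CPM, and its ratio of 1.49 at both D4 and D7 (1.43 to 1.55 at D7) lay just under the limit of a call. ATF4 is controlled mainly through translation, which RNA counts do not read.

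The stress effectors Ddit4 (REDD1, an inhibitor of mTORC1) and Ppp1r15a (GADD34, which returns eIF2 to its active form) followed the course of Ddit3. Ddit4 stood at 11.8, 11.1, 19.4 and 18.2 CPM, with ratios of 1.65 (1.52 to 1.79) at D4 and 1.55 (1.42 to 1.68) at D7. Ppp1r15a stood at 12.0, 12.6, 20.1 and 18.9 CPM, with 1.67 (1.54 to 1.80) at D4 and 1.57 (1.45 to 1.70) at D7. Ddit3, Ddit4 and Ppp1r15a thus had D1 ratios of 0.868, 0.945 and 1.04 and were called at D4 and D7.

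The remaining members, mostly amino acid enzymes, were not called on any day. The tRNA synthetases Aars, Sars and Nars, which load alanine, serine and asparagine, had D7 ratios of 1.22, 1.13 and 0.93. Phgdh and Psat1, the opening steps of serine synthesis, had 0.934 and 1.14, and Vldlr, a lipoprotein receptor that PERK signalling raises, had 1.05. Sesn2, a leucine sensor that restrains mTORC1, stood at 26.0, 17.7, 24.3 and 20.4 CPM and had the lowest ratios of all 38 members at D1 and D7, 0.681 (0.633 to 0.733) and 0.786 (0.736 to 0.838). It overlaps the model gene Gm12981 on the same strand.

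Values that moved with these results were recorded. The 12 early-response genes of a list known to appear during tissue dissociation summed to 1468, 1231, 2803 and 2754 CPM in the proximal tubule gate. Of the 12, 1, 10 and 9 were called higher at D1, D4 and D7, against 5.73, 9.08 and 12.5% of all genes. The part of the dissociation genes in the ATF4-arm ratios was not tested. The summed level of 9 macrophage markers in the gate was 69.3, 95.5, 140 and 214 CPM, with 0 of them at 0, against 15622 to 32085 CPM in the macrophage gate. Their part was not tested either. In cells with a UMI of Slc7a13, a marker of the last segment of the proximal tubule, 7 of 16 ATF4-arm members were called higher at D7 and 0 of 21 chaperones. In cells without it the counts were 8 of 17 and 0 of 21, but at D4 3 of 21 chaperones were called there, Dnajb9 at 1.65, Creld2 at 1.63 and Selenos at 1.55. The share of all genes called was not recorded for cells with or without Slc7a13.

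Promoter letters and ratios were set side by side as a description. The 9 chaperone-arm genes with an ERSE or ERSE-II had D7 ratios from 0.99 to 1.43 (median 1.12) and the 9 without had 0.95 to 1.29 (median 1.16). Of the 5 ATF4-arm genes with a CARE, 3 were called at D7 (Trib3, Chac1 and Asns, printed above), and Vldlr and Aars were not. Of the 11 without one, 5 were called. Since Trib3 and Chac1 entered only through the libraries in which they were high, nothing is read from these counts.

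Genes around the 38 members, from lists of the same pathways, gave a wider reading at D7. Of 12 sensors and eIF2 regulators 0 were called in the whole gate. Eif2ak3 (PERK) stood at 1.24, Eif2ak4 (GCN2) at 1.09 and Ern1 (IRE1) at 0.855 times their D0 level. RNA counts do not read the activity of these kinases. Of 24 other folding and translocation genes 1 was called, Fkbp11, a prolyl isomerase, at 2.24 (1.83 to 2.76). Of 17 other degradation genes and 10 genes of the mitochondrial unfolded protein response 0 were called. Of 26 other ATF4 targets that passed the filter 11 were called higher and 0 lower. Of all genes in this gate 12.5% were called higher and 3.69% lower at D7. The 3 highest were Slc7a11 (the cystine transporter, 45 UMIs at D7 against 1 at D0, ratio 43.7 with an interval from 7.46 to 1765, a gene that passed the filter only through the later libraries), Atf3 (a stress transcription factor, 82.9 CPM at D7 against 9.47 CPM at D0, ratio 8.75) and Stc2 (a secreted glycoprotein, 2.18 against 0.338 CPM, ratio 6.44).

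Cells with at least 1 Havcr1 UMI were then set against the other proximal tubule cells of the same library, a comparison that involves no other day. They numbered 108, 460 and 580 at D1, D4 and D7, and 8 at D0, which was left out. Much of the ATF4 arm was called higher in the Havcr1 cells on each day and few or none of the 21 chaperone-arm members. At D1, 8 of 15 ATF4-arm members and 2 of 21 chaperones were higher and 1 chaperone was lower (7.01% of genes higher, 3.58% lower). At D4 the counts were 7 of 16 and 0 of 21 (7.23% higher, 4.06% lower). At D7 they were 7 of 16 and 0 of 21 (10.8% higher, 3.84% lower), with 0 members lower on either day. The median log2 ratio of the ATF4 arm was 0.60, 0.57 and 0.53 and that of the chaperone arm 0.28, 0.02 and -0.01. That of all genes was 0.04, 0.01 and 0.09. Among the 12 sensors and eIF2 regulators 0, 1 and 2 were called higher at D1, D4 and D7. Eif2ak2 was called at D4, at 1.92 (1.36 to 2.64). At D7 Eif2ak3 stood at 2.08 (1.64 to 2.62) and Eif2ak4 at 1.91 (1.17 to 2.98). Of 24 other folding and translocation genes 2, 2 and 5 were called higher, and of 17 other degradation genes 2, 1 and 0. In these lists 0 were lower. Of other ATF4 targets 10 of 22, 12 of 23 and 11 of 23 were higher, with 1 lower at D7.

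**Figure D3:**
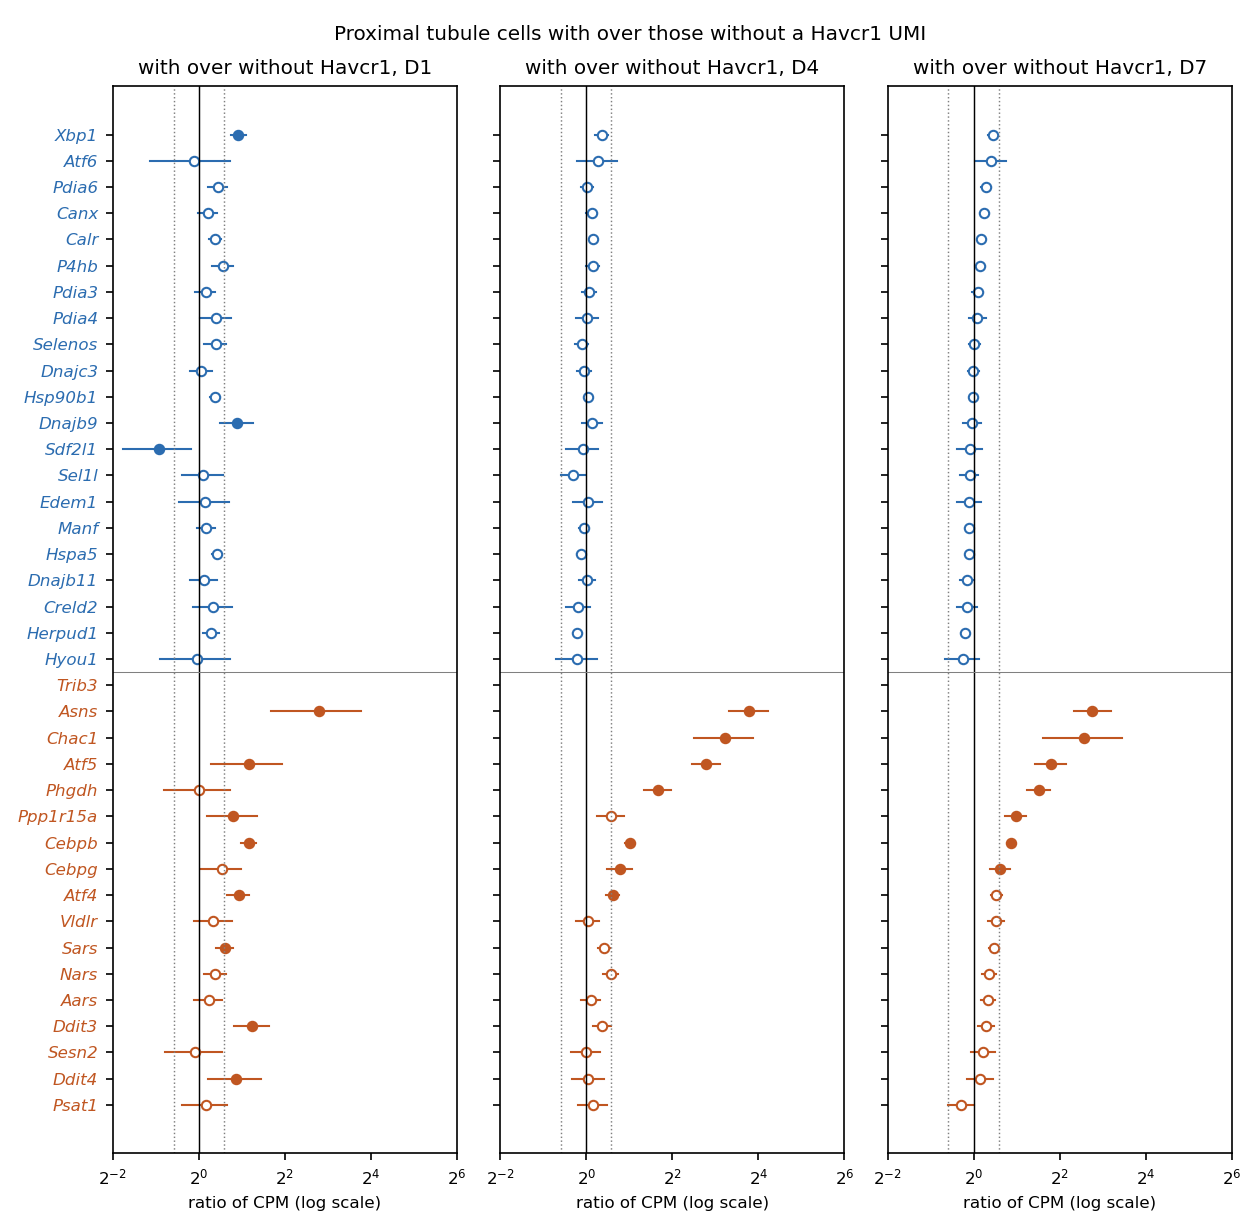
Ratio of CPM in proximal tubule cells with over those without a Havcr1 UMI at D1, D4 and D7 (x axis, log scale). Lines are 95% counting intervals and filled points are called; Asns stands at 6.94, 13.6 and 6.79 and Hspa5 at 1.35, 0.914 and 0.922. Genes with under 50 UMIs in the comparison, Trib3 among them, have no point.

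Asns differed most among the members that passed the filter. It stood at 20.3 CPM in Havcr1 cells and 1.49 CPM in the other cells at D4, a ratio of 13.6 (9.94 to 18.6), and at 13.7 and 2.02 CPM at D7, a ratio of 6.79 (5.02 to 9.09). Chac1 followed with ratios of 9.30 (5.70 to 14.8) at D4 and 5.92 (3.04 to 11.0) at D7, and Atf5 with 6.91 (5.46 to 8.68) and 3.47 (2.69 to 4.43). Phgdh, which was not called between days, stood at 28.7 CPM in Havcr1 cells and 9.08 CPM in the others at D4, and at 30.3 and 10.6 CPM at D7. Its ratios were 3.16 (2.52 to 3.93) and 2.85 (2.38 to 3.40), and at D1 its ratio was 1.01. Psat1, the next step of the same route, had ratios of 1.11 at D4 and 0.82 at D7, so only the opening enzyme of the pair was called.

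Cebpb was 2.23, 2.02 and 1.82 times higher in Havcr1 cells at D1, D4 and D7, and Cebpg was called at D4 (1.72) and D7 (1.53). Atf4 had 1.90, 1.53 and 1.44, and Ppp1r15a 1.73, 1.49 and 1.97. Ddit3 and Ddit4 were called at D1 only, at 2.35 and 1.81, from 57 and 25 UMIs in the Havcr1 cells. Their ratios were 1.29 and 1.03 at D4 and 1.22 and 1.11 at D7. The sets of genes called between days and between cells therefore differ in that Ddit3 and Ddit4 were called between D7 and D0 but not between the cells at D7, and Phgdh and Cebpg the other way round. These differences between ratios were not tested. Among the chaperones Xbp1 had the highest ratio at D7, 1.37 (1.27 to 1.48), and was called at D1 at 1.89 with Dnajb9 at 1.83. Sdf2l1 was called lower at D1, at 0.529, from 15 UMIs in the Havcr1 cells.

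The share of each gene's UMIs that lay in Havcr1 cells restates the ratios above from the same counts, with Trib3 added. These cells were 4.59% of proximal tubule cells at D7 and held 5.95% of all their UMIs. They held 41.7% of Trib3 (20 of 48 UMIs), 30.0% of Asns, 27.3% of Chac1, 18.0% of Atf5 and 15.3% of Phgdh UMIs. Of Ddit3, Ddit4 and Hspa5 UMIs they held 7.16, 6.56 and 5.51%. At D4 they held 3.79% of all UMIs, 61.8% of Trib3 (21 of 34 UMIs) and 34.9% of Asns UMIs. Without them the D7 ratio to D0 was 2.48 for Asns (3.33 with them), 28.9 for Trib3 (46.7) and 10.3 for Chac1 (13.4). It was 1.99 for Ddit3 (2.02) and 1.48 for Ppp1r15a (1.57). In the cells without Havcr1 7 of 17 ATF4-arm members were called higher at D7. The share of all genes called was not recorded for those cells, so nothing is read from this count. Trib3 and Chac1 passed the filter only through the later libraries.

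**Figure D4:**
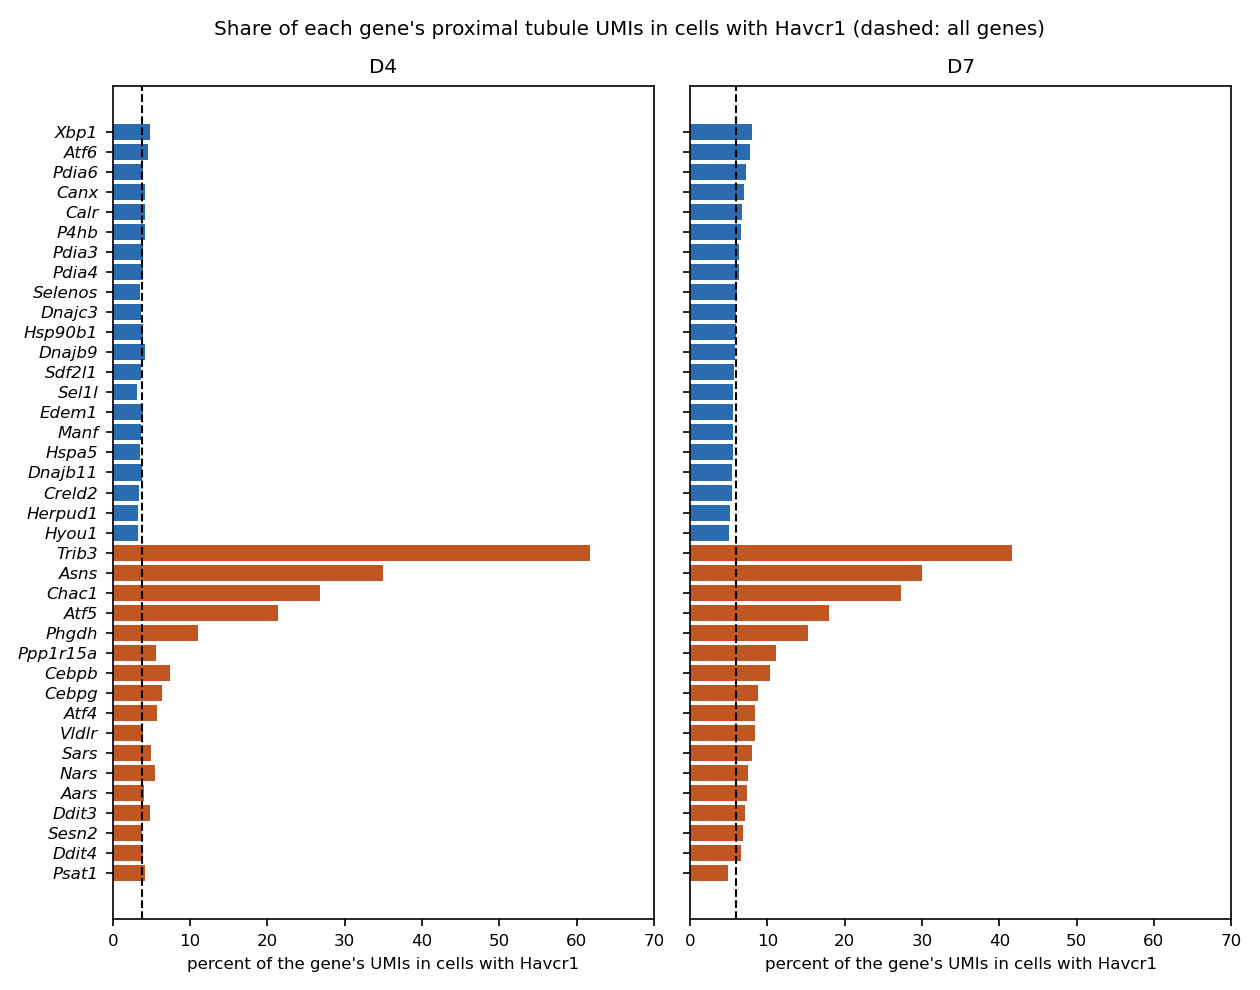
Percent of each gene's UMIs in the proximal tubule gate that lay in cells with a Havcr1 UMI (x axis) at D4 and D7, for chaperone-arm (blue) and ATF4-arm genes (orange). The dashed line is the percent of all UMIs held by these cells, 3.79 at D4 and 5.95 at D7; the bars of Trib3, Asns, Chac1, Atf5 and Phgdh reach furthest past it.

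Havcr1 cells were deeper, at a median of 7656 UMIs against 5617 UMIs in the other cells at D7. The medians were 9914.5 against 6937 UMIs at D1 and 6395 against 4984 UMIs at D4. CPM scales the totals only, cells were not matched for depth, and no doublet caller was run. The median of 11 proximal tubule markers in Havcr1 cells was 63.1% of its level in the whole gate at D7. The 12 dissociation genes summed to 2956 CPM in Havcr1 cells against 2741 CPM in the other cells. Of the 12, 4 were called higher, against 10.8% of all genes. At D1 they summed to 1722 against 1222 CPM, with 4 called higher and 1 lower (7.01% of genes higher, 3.58% lower). At D4 they summed to 2385 against 2819 CPM, with 1 called higher and 1 lower (7.23% higher, 4.06% lower). At D7 the 9 macrophage markers summed to 320 CPM in Havcr1 cells, 2 of them at 0, and to 207 CPM in the others. The part of these in the ratios was not tested. Per cell, the ATF4 arm made up a median of 8.49 of 10000 UMIs in Havcr1 cells and 5.60 in the others at D7, and the chaperone arm 25.9 in both.

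Which members lie in the same cells was described by splitting the D7 proximal tubule cells on a single member. The 187 cells with an Asns UMI were set against the 12438 without. Trib3 was 24.1 times higher in them (12.4 to 45.3), Chac1 14.9 times (7.35 to 28.3), Atf5 8.27 times (6.26 to 10.8) and Phgdh 6.70 times (5.48 to 8.13). Trib3 had 48 UMIs in both sets together, under the 50 UMIs needed to be counted next. Of the 15 other ATF4-arm members with 50 UMIs 10 had a ratio of at least 1.5, against 0 of 21 chaperones and 20.5% of all genes, and Hspa5 and Herpud1 stood at 0.867 and 0.746. Of these cells 27.8% also had a Havcr1 UMI, against 4.59% of the gate. The same split gave 1 of 14 and 1 of 21 at D0 (21.3% of genes), 3 of 14 and 2 of 21 at D1 (17.7%) and 6 of 15 and 0 of 21 at D4 (17.5%), so the ATF4-arm share stood well above that of all genes at D4 and D7. At D0, with 59 cells with Asns, Atf5 had 0.967 and Phgdh 1.26, each from at most 11 UMIs.

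Cells with a Ddit3 UMI gave a different neighbourhood. There were 2630 of them at D7, and 6.43% also had a Havcr1 UMI. Trib3, Chac1, Asns, Ppp1r15a and Atf5 had ratios of 6.23, 4.02, 2.15, 1.83 and 1.79 there. Trib3, with 48 UMIs in both sets together, is not among the 15 members counted next. Of the chaperones 1 of 21 reached 1.5, Creld2 at 1.55 (1.44 to 1.67), against 5 of 15 in the ATF4 arm and 7.64% of all genes. Manf and Herpud1 stood at 1.38 and Hspa5 at 1.35. The count was 1 of 14 and 0 of 21 at D0 and at D1 (2.43% of genes on both days) and 3 of 15 and 0 of 21 at D4 (3.76%). At D0 the same split gave Manf 1.32, Herpud1 1.26 and Hspa5 1.23. Cells with Asns or Ddit3 were deeper than those without, at medians of 8171 against 5665 UMIs for Asns and 6758 against 5439 UMIs for Ddit3, and cells are not replicates, so these ratios describe the single D7 library.

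The other gates showed parts of the pattern. These gates hold proximal tubule RNA and cells of more than 1 kind. Proximal tubule markers were also counted in the other gates. The median of 11 proximal tubule markers in the thick limb gate stood at 26.5, 26.4, 37.6 and 30.7% of their level in the proximal tubule gate over the 4 days from D0 to D7. In the distal gate it stood at 25.2, 17.9, 46.8 and 32.3%, and in the macrophage gate at 45.8, 33.9, 62.6 and 36.5%. Of the thick limb, distal and macrophage cells 80 of 173, 141 of 310 and 53 of 194 also passed the proximal tubule gate at D7, and 54 of 106, 143 of 208 and 57 of 127 did at D4. With such cells left out those percentages were 5.17, 9.05 and 23.2 at D7, against 5.15, 5.23 and 34.2 at D0. At D4 they were then 10.5, 12.4 and 47.2. The part of this RNA in the D4 calls of these gates was not tested.

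**Figure D5:**
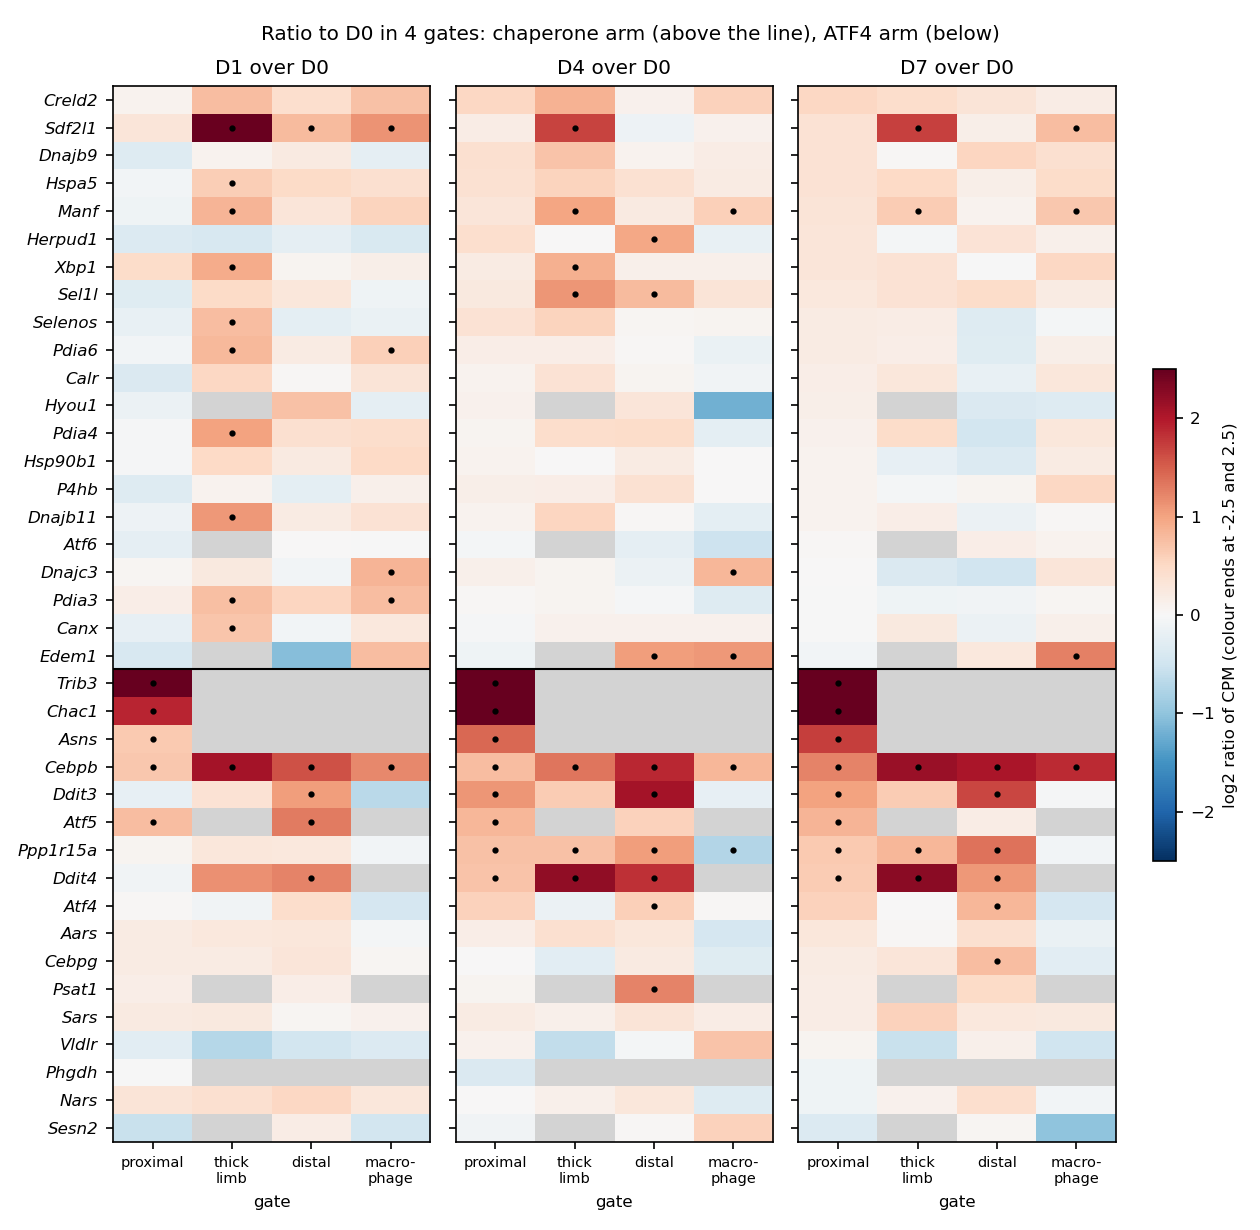
Log2 ratio of CPM at D1, D4 and D7 over D0 (colour) for each member (rows, chaperone arm above the line) in the 4 gates (columns). Black dots mark called members and grey cells members with under 50 UMIs in the gate; Cebpb is called in all 4 gates on all 3 days, while dots among chaperones are most frequent in the thick limb at D1.

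Distal convoluted tubule cells, which reabsorb sodium chloride through Slc12a3, were most like the proximal tubule. At D1, 4 of 13 ATF4-arm members and 1 of 21 chaperones were called higher (6.51% of genes higher, 3.06% lower). At D4 it was 6 of 13 and 3 of 21 (12.4% higher, 2.61% lower) and at D7 6 of 13 and 0 of 21 (12.9% higher, 1.43% lower), with 0 members lower on any of these days. The chaperones were Sdf2l1 at D1 (1.73) and Edem1, Herpud1 and Sel1l at D4 (2.06, 1.94 and 1.73). Cebpb stood at 20.8, 62.6, 76.3 and 85.9 CPM at D0, D1, D4 and D7, a D7 ratio of 4.13 (2.99 to 5.80). Ddit3 stood at 13.1, 27.1, 55.4 and 41.7 CPM, a D7 ratio of 3.17 (2.07 to 4.96), and was already called at D1. Ppp1r15a, Ddit4, Atf4 and Cebpg had D7 ratios of 2.56, 2.12, 1.77 and 1.71. Distal cells had a median mitochondrial share of 32.5% of UMIs at D0 against 19.3% at D7. Why the share differed was not tested. Of all genes in this gate 71.8% had a D7 ratio above 1, with a median log2 ratio of 0.23. The ATF4-arm median of 0.48 at D7 was 0.24 with TMM factors. Over the alternatives 4 to 7 ATF4-arm members were called higher at D7. The 12 dissociation genes summed to 1649, 2608, 4393 and 5524 CPM in this gate, and their part was not tested. With cells of 2 gates left out, 5 ATF4-arm members were called at D7.

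The thick limb was the gate in which the chaperones stood out, and that at D1. There 10 of 18 chaperone-arm members and 1 of 10 ATF4-arm members were called higher and 0 lower (7.64% of genes higher, 2.3% lower), and the chaperone-arm median log2 ratio was 0.73 against 0.15 for all genes. Sdf2l1 had counts of 7, 47, 21 and 42 over the 4 days, or 11.4, 63.2, 36.5 and 37.0 CPM, a D1 ratio of 5.55 (2.49 to 14.6). Dnajb11, Pdia4, Xbp1 and Manf had D1 ratios of 2.12 (1.38 to 3.35), 2.00 (1.15 to 3.62), 1.89 (1.34 to 2.72) and 1.80 (1.36 to 2.41). Hspa5 stood at 368, 561, 539 and 523 CPM, a D1 ratio of 1.53 (1.29 to 1.80). The others called were Pdia6, Selenos, Pdia3 and Canx, at 1.75 to 1.61, and Herpud1 stood at 0.76.

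These values rest on 106 cells at D0 and 108 at D1. The median share of mitochondrial UMIs in them was 15.0% at D1 and 25.7% at D0, and scaled to the other genes 6 of 18 chaperones were called at D1. With cells of 2 gates left out 12 of 17 were called. At D4 the count was 4 of 18 (6.97% of genes higher, 2.96% lower) and at D7 2 of 18 (8.4% higher, 3.41% lower), Sdf2l1 at 3.25 and Manf at 1.56. The ATF4 arm had 3 of 10 called on both of these days. At D7 they were Ddit4 at 4.76 (2.38 to 10.8), Cebpb at 4.49 (2.71 to 7.93) and Ppp1r15a at 1.79 (1.27 to 2.56). The 12 dissociation genes summed to 2717, 4637, 5896 and 6943 CPM, and their part was not tested.

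Macrophages, which clear crystals and debris and secrete many proteins, had the highest chaperone levels. Of the 21 chaperone-arm genes 15, 12, 11 and 19 were highest in this gate of the 4 at D0, D1, D4 and D7, and Hspa5 stood at 807 CPM in it at D7. Called higher were 4 of 21 at D1 (6.11% of genes higher, 4.09% lower), 3 of 21 at D4 (7.97% higher, 6.64% lower) and 3 of 21 at D7 (7.9% higher, 8.35% lower). Those at D7 were Edem1 at 2.41 (1.33 to 4.73), Sdf2l1 at 1.71 (1.25 to 2.38) and Manf at 1.60 (1.28 to 2.01). In the ATF4 arm Cebpb alone was called higher on each day, of 10 members that passed the filter, at 177, 408, 314 and 647 CPM and a D7 ratio of 3.65 (2.94 to 4.57). Ddit3 stood at 47.2, 29.6, 40.9 and 46.5 CPM in this gate, a D7 ratio of 0.986 (0.608 to 1.64). Ppp1r15a, at 86.9, 83.2, 52.1 and 82.8 CPM, was called lower at D4, at 0.60 (0.379 to 0.946). The dissociation genes summed to 9167 CPM at D0 and to between 6145 and 6499 CPM later in this gate.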

How the data were processed

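Kidney cells from 4 libraries (1 per day) were profiled by droplet 3' sequencing. The deposited matrices hold whole UMI counts per gene and barcode, not normalized. The counts were made by the authors with Cell Ranger 3.1.0 and the mm10 build, per the submitters' processing notes, while the software version in the matrix headers is 3.0.1, per the file headers. The annotation release is not given in the sources used here, so positions come from GENCODE M21 by gene ID.

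Cells were gated by marker UMIs, UMIs were summed per gate and library, and levels are CPM. Ratios carry exact 95% conditional Poisson intervals, and genes needed 50 UMIs. No doublet caller was run, and gates are not exclusive. Depth limits precision, and intervals cover counting error only: PCR, animals and dissociation are not in them. The call rule, checked on simulated data at D7 against D0 in the proximal tubule gate (12453 genes), recovered 47 of 47 genes raised 2-fold and 46 of 48 lowered to 0.5, and called 30 of 12256 unchanged genes higher and 30 lower. The simulated libraries were drawn from the D0 levels with counting error alone, which the interval assumes. The check therefore says nothing of differences between animals, dissociations or libraries.

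All 38 members are named. Values by day are given for those called in the proximal tubule and for Hspa5, Atf4, Ddit3, Xbp1, Asns and Trib3. From other pathway lists the 3 highest and lowest called ratios are given, and in other gates the 4 highest and lowest members called at D7. The sensors, the thick limb members at D1, and other values beyond that rule were named after seeing their values. The members and lists were chosen with earlier results of these data known. Selenos was matched by gene ID. The alternatives were a mitochondrial limit of 25%, 3000 UMIs per cell, a cap at 3 times the median UMIs, cells of 1 gate, TMM factors, CPM without mitochondrial genes, a pseudocount of 1 CPM, 200 UMIs or no filter, proximal tubule RNA taken off, and cells with or without Slc7a13 or Havcr1. Python 3.11.15, NumPy 2.4.6, pandas 2.3.3, SciPy 1.17.1, matplotlib 3.10.9 and R 4.3.3 with edgeR 4.0.16 (for TMM only) were used.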

Additional observations from a re-analysis of the deposited data

Results flagged for a closer look

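Ppp1r15a (GADD34) at D4 against D0 went opposite ways in different gates. Its ratio was 1.67 in the proximal tubule gate, 1.65 in the thick limb gate and 2.06 in the distal gate, each called higher, and 0.600 in the macrophage gate, called lower (0.379 to 0.946). It is listed because the called directions differ between cell types under the same comparison, with 1 library per day. The difference between gates was not tested. In the macrophage gate Ppp1r15a had 52.1 CPM at D4, against 86.9 CPM at D0, and in the proximal tubule gate 20.1 CPM at D4. The proximal tubule markers in the macrophage gate stood at 62.6% of their level in the proximal tubule gate at D4, against 45.8% at D0, and the 9 macrophage markers summed to 15622 CPM at D4, against 32085 CPM at D0. With cells of 2 gates left out the proximal tubule percentages were 47.2 at D4, against 34.2 at D0. The part of this RNA in the difference was not tested.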

How the results depend on the processing

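No paired analysis was possible because there is 1 library per day and no test. The 1.25-fold and 2-fold calls, and all alternatives for the thick limb at D1, were chosen after seeing the data. Of the counts of called members 433 stayed within 1.5 times and 59 moved, and no called ratio changed sign. In the proximal tubule the ATF4-arm count at D1 (5) was 2 with a mitochondrial limit of 25%, 3 with TMM factors, 3 with CPM over the other genes, 2 with CPM plus 1, 3 with 200 UMIs, 3 in cells with Slc7a13, 3 without the Havcr1 cells and 2 at 2-fold. At D4 and D7 (8 each) it was 4 and 5 at 2-fold and stayed within 1.5 times otherwise. The chaperone count (0) was 1, 5 and 4 at 1.25-fold at D1, D4 and D7, against 13.1, 14.5 and 20.1% of all genes, and 3 at D4 in cells without Slc7a13. Chaperones lower at 1.25-fold were 4 at D1 (Edem1, Calr, Herpud1 and Dnajb9) and 0 at D4 and D7, against 5.68, 6.55 and 7.69% of genes. In the thick limb the chaperone count at D1 (10) was 6 with CPM over the other genes and 3 at 2-fold, that at D7 (2) was 1 with TMM factors, with CPM over the other genes, with 200 UMIs and at 2-fold, and the ATF4-arm count at D1 (1) was 2 with proximal tubule RNA taken off. At D7 the distal chaperone count (0) was 2 at 1.25-fold (19.7% of genes). The count of distal chaperones lower at D7 (0) was 2 at 1.25-fold (3.03% of genes), with a mitochondrial limit of 25%, with TMM factors and with CPM over the other genes, and 3 with proximal tubule RNA taken off. The macrophage one (3) was 5 with the cap on UMIs, 5 with TMM factors, 6 at 1.25-fold and 1 at 2-fold. Between Havcr1 cells and the others the chaperone count at D1 (2) was 1 with the cap, 9 at 1.25-fold and 0 at 2-fold, and at D4 and D7 (0 each) 1 and 2 at 1.25-fold. The ATF4-arm count there was 4 at D1 (8) at 2-fold, 11 at D4 (7) at 1.25-fold, and 12 at 1.25-fold and 4 at 2-fold at D7 (7). The cause of these shifts was not tested, beyond the construction of the stricter or looser folds.

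Of the arm medians 192 stayed between the medians of the members' interval bounds and 14 moved past them, and of the members' ratios 3274 stayed within their counting intervals and 293 moved past them. The proximal tubule ATF4-arm medians of 0.58 at D4 and 0.57 at D7 were 0.21 and 0.29 with 200 UMIs, and that of 0.20 at D1 was 0.09 with TMM factors. The distal one at D7, 0.48, was 0.24 with TMM factors and 0.92 with a mitochondrial limit of 25%. The median log2 ratio of an arm changed sign in 3 cases, all near 0. For the ATF4 arm in macrophages at D7 it was 0.02 with 3000 UMIs per cell and 0.05 with cells of 2 gates left out, against -0.12, and for the chaperones in Havcr1 cells at D4 it was -0.02 with TMM factors, against 0.02. Depth limits the thick limb and macrophage gates most: 7 ATF4-arm members, Asns, Trib3 and Chac1 among them, had under 50 UMIs in each of these.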
